A study of Mus musculus with 15 samples.

Results

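The genes described here are 35 antioxidant, NRF2 and NADPH oxidase genes of the mouse. They were chosen by name, and all 35 were found among the 14192 genes tested, through probes whose RefSeq accession maps to the symbol. Each of the 35 had a kept probe, and each was well above background on every array on which its spot was measured. The study compared wild type C57BL/6 macrophages with macrophages of the genotype Junb-fl/fl Lyz2-Cre+/+ on the C57BL/6 background, in which Cre recombinase deletes the floxed Junb gene. Junb encodes a subunit of the transcription factor AP-1, and Lyz2, whose locus carries Cre, is the lysozyme gene of myeloid cells. Bone marrow cells had been grown into macrophages in macrophage colony-stimulating factor and then received either nothing or lipopolysaccharide (LPS), the endotoxin of Gram-negative bacteria, for 4 h (100 ng/ml). There were 4 arrays each of untreated wild type, LPS-treated wild type and untreated knockout cells and 3 arrays of LPS-treated knockout cells. The wild type label names C57BL/6 only, with no Cre and no floxed allele. The study's design names independent wells but no mice, so the p-values rest on variation among wells, some of which may be technical.

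NRF2, the product of Nfe2l2, is a transcription factor that KEAP1 holds back and marks for degradation. When oxidants or electrophiles modify KEAP1, NRF2 pairs with a small MAF protein (MAFF, MAFG or MAFK) on antioxidant response elements and switches on genes that make glutathione and thioredoxin, while BACH1 competes for the same elements. Glutathione and thioredoxin carry the electrons with which peroxidases and peroxiredoxins remove peroxides. The phagocyte NADPH oxidase works the other way: its membrane subunits and cytosolic subunits assemble on activation and make superoxide, which macrophages use against microbes and as a signal.

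Levels are log2 of the processed spot signal over the 75th percentile of the array, so that 0 is the 75th percentile, and only the same probe is compared between arrays. That percentile lay between 482 and 1490 over the arrays, and 51.0% to 63.2% of the spots were well above background. In wild type cells the processed signal of Junb was 1291 to 2068 without and 4323 to 9574 with LPS, and Junb was well above background on 0 of the 7 knockout arrays (exact permutation p = 0.0286 untreated and 0.0571 with LPS, two-sided, the smallest these group sizes allow). Slide 1 carried only knockout arrays and slide 2 only wild type arrays. In addition, Xist was well above background on 0 of 7 knockout and 8 of 8 wild type arrays, and the Y-linked Ddx3y and Eif2s3y on 7 of 7 knockout and 0 of 8 wild type arrays. A further Y-linked gene, Kdm5d, was well above background on 7 of 7 knockout and 5 of 8 wild type arrays. Its probe was dim, at 30.7 to 87.8 in knockout cells, and had 0.58 to 1184 in wild type cells, with 1184 on untreated replicate 1. Eif2s3y had 21062 to 46615 in knockout and at most 51.4 in wild type cells. Loss of Junb, Cre in both copies of Lyz2, slide and the difference in these sex-linked genes therefore cannot be told apart in any comparison of the genotypes, whereas each LPS comparison lies within a slide. The 4 untreated wild type arrays alone carry a factor from the scanner software's detrending, which differs from spot to spot. In the wild type LPS comparison this factor coincides with the untreated state. Of 12 macrophage markers 11 had a matched probe, and all 11 were well above background on every array. Their levels were not equal, since Lyz2, among them, had 869 to 2424 in untreated knockout and 391771 to 448164 in untreated wild type cells. The 11 summed to 1382 to 1631 times the 75th percentile in untreated wild type and 700 to 1538 in untreated knockout cells. With LPS the sums were 1545 to 2368 and 1301 to 1692. Untreated knockout replicate 3 deviated most from its group (SD of 0.638 over genes, against 0.231 to 0.540 on the other arrays). It also held 2115 of the 4827 marked spots. The estimated array weights were lowest on untreated wild type replicate 1 (0.19) and LPS-treated wild type replicate 4 (0.24), against 0.59 on untreated knockout replicate 3.

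In wild type cells 14 of the 35 genes rose with LPS, 7 fell and 14 did not pass (limma, adjusted p under 0.05 over all genes tested). In knockout cells 14 rose, 11 fell and 10 did not pass. These are 21 and 25 of 35 genes, where 60.5% of all genes were called in wild type (34.9% higher and 25.5% lower) and 59.9% in knockout cells (32.5% higher and 27.5% lower). In wild type cells, 60.0% of the 35 is close to the background, and in knockout cells 71.4% is above it. In both genotypes 12 genes rose, namely Nfe2l2, Keap1, Maff, Mafk, Gsr, Txn1, Txnrd1, Srxn1, Prdx5, Prdx6, Sod2 and Cybb. Gclm, Gss, Gpx1, Gpx4, Prdx3, Cat and Nqo1, 7 genes, fell in both, and 0 were called in opposite directions. The arrays of the groups compared did not overlap for 17 genes in wild type and 24 in knockout cells, against 52.6% and 65.5% of all genes. In RNA from whole wells, a change in the number of cells of a type and a change in RNA per cell cannot be told apart. The summed level of 10 matched neutrophil markers rose with LPS. In wild type cells it was 10.8 to 16.9 times the 75th percentile untreated and 52.6 to 71.1 with LPS. In knockout cells it was 7.40 to 8.56 and 19.4 to 22.3. Cxcr2 and Mpo were well above background on no array, S100a9 on no knockout array and Ngp on no wild type array. Dendritic cell markers summed to 151 to 214 untreated and 135 to 321 with LPS in wild type cells. In knockout cells they summed to 101 to 179 and 167 to 232. T and NK cell markers gave 0.82 to 1.26 and 1.52 to 2.02 in wild type cells. B cell markers summed to 0.77 or more untreated and to 0.57 or less with LPS. The part of these cell types in the changes below was not tested.

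The scaling between arrays bears on these directions. The median change of all genes was 0.14 in wild type and 0.19 in knockout cells here and -0.10 and -0.07 under quantile normalisation, and 20 of the 35 genes are among the brightest 10% of genes, whose median moved further, from 0.46 to -0.13 in wild type and from 0.54 to -0.08 in knockout cells. Under quantile normalisation 9 of the 35 rose and 18 fell in wild type cells, and 8 rose and 18 fell in knockout cells. The shares of all genes that rose or fell under that scaling are not given. Member counts under it are therefore not read as an excess or a lack. The split of all calls moved as well, with rises making up 57.8% of the calls in wild type cells here and 43.4% under quantile normalisation, and 54.2% and 37.8% in knockout cells. The calls that passed in the same direction under both scalings were 16 of 21 in wild type cells (9 rises and 7 falls) and 19 of 25 in knockout cells (8 rises and 11 falls). Among members, a change that passed under only 1 of the scalings is given with its quantile value below.

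**Figure D1:**
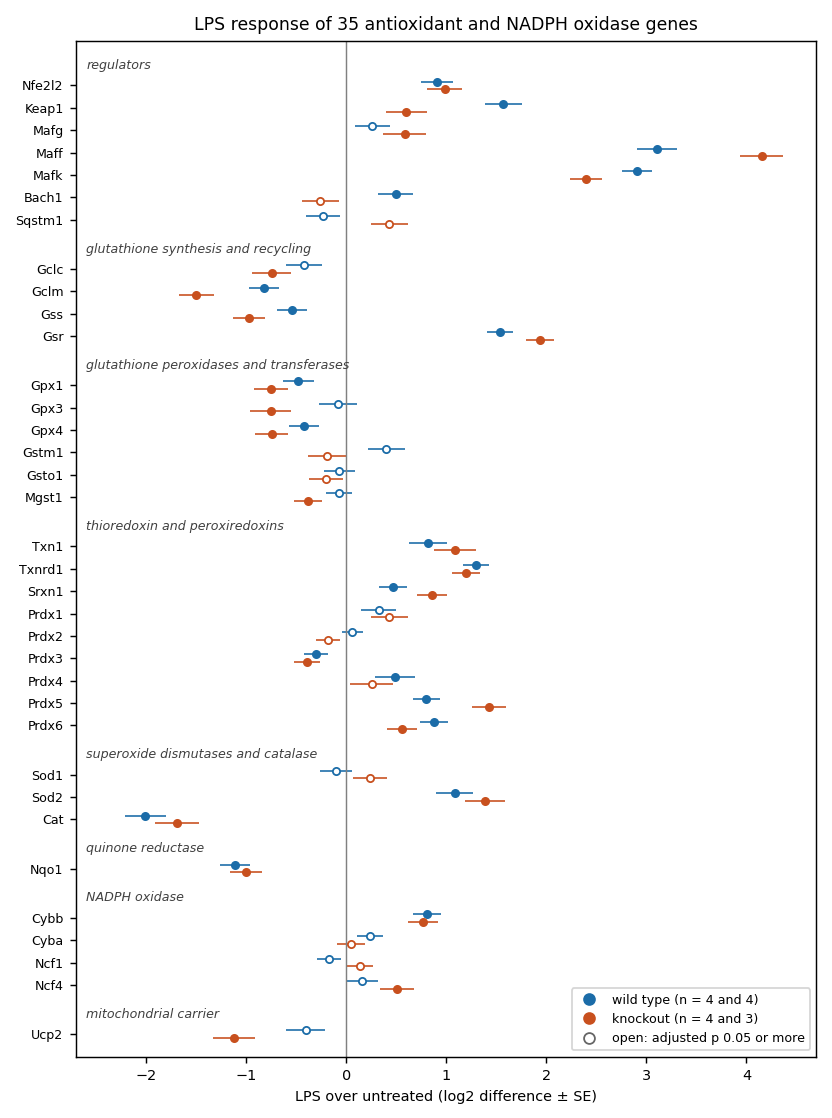
Change with LPS of each of the 35 genes (log2 difference of LPS-treated over untreated cells ± SE) in wild type (blue, n = 4 and 4 arrays) and knockout cells (orange, n = 4 and 3), in groups by role; open points have an adjusted p of 0.05 or more. Maff and Mafk lie farthest to the right and Cat farthest to the left in both genotypes, glutathione genes other than Gsr lie mostly left of 0, and most thioredoxin genes lie to the right, although their median turns to -0.05 and -0.10 under quantile normalisation.

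The regulators of NRF2 had the highest median change of the groups, 0.91 in wild type and 0.60 in knockout cells. Of the 7, Nfe2l2, Keap1, Maff, Mafk and Bach1 rose in wild type cells, and Nfe2l2, Keap1, Maff, Mafk and Mafg rose in knockout cells. That is 71.4% called in each genotype, where 60.5% (wild type) and 59.9% (knockout) of all genes were called. Maff encodes a small MAF partner of NRF2. Its level was 2.12, 2.72, 2.75 and 3.08 on the untreated and 5.98, 5.67, 5.87 and 5.58 on the LPS-treated wild type arrays, and 2.41, 2.57, 2.73 and 1.96 and 6.66, 6.67 and 6.37 on the knockout arrays. Every LPS-treated array lay above every untreated array, and the 3 knockout values with LPS lay above the 4 wild type ones. The rise was 3.11 ± 0.20 (SE) in wild type cells, which is 8.61-fold (adjusted p = 9.3e-09), and 4.15 ± 0.22, 17.8-fold, in knockout cells (adjusted p = 1.3e-09). Mafk, another small MAF gene, had 0.86, 0.62, 0.45 and 0.66 untreated and 3.40, 3.69, 3.50 and 3.63 with LPS in wild type cells, and 0.21, 0.65, 0.13 and 0.61 untreated and 2.75, 2.56 and 3.08 with LPS in knockout cells. Here too the untreated and LPS-treated arrays did not overlap, but the knockout values with LPS were below the wild type ones. Mafk rose by 2.91 ± 0.15 (adjusted p = 8.94e-10) and 2.40 ± 0.16 (adjusted p = 1.78e-08).

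Nfe2l2 itself, the gene of NRF2, had levels of 5.83, 6.53, 6.62 and 6.50 in untreated and 7.32, 7.27, 7.2 and 7.31 in LPS-treated wild type cells. In knockout cells the levels were 6.73, 6.27, 6.48 and 6.35 untreated and 7.43, 7.62 and 7.27 with LPS. The LPS-treated arrays were the higher ones in both genotypes, with no overlap, and the lowest value was that of untreated wild type replicate 1. The rises, 0.91 ± 0.16 (adjusted p = 0.00024) and 0.98 ± 0.18 (adjusted p = 0.000252), were smaller but still passed under quantile normalisation (0.29 and 0.32). Keap1, whose product restrains NRF2, had 2.02, 1.75, 1.75 and 2.41 untreated and 3.55, 3.79, 3.39 and 3.49 with LPS in wild type cells. In knockout cells it had 1.81, 2.27, 2.02 and 1.66 untreated and 2.82, 2.16 and 2.65 with LPS. The wild type groups are well apart, whereas 1 of the 3 LPS-treated knockout arrays, replicate 3, lay within the range of the untreated ones. Keap1 rose by 1.57 ± 0.19 in wild type cells (adjusted p = 5.06e-06) and by 0.60 ± 0.20 in knockout cells (adjusted p = 0.0195). The call in knockout cells did not hold under quantile normalisation (0.43, adjusted p = 0.0944) or without any 1 of untreated knockout replicate 4 and LPS-treated knockout replicates 2 and 4 (0.47 to 0.55, adjusted p = 0.0562 to 0.0955).

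The remaining regulators gave weaker or unsettled values. Bach1, the repressor that competes with NRF2, had 0.49 ± 0.17, adjusted p = 0.0229 in wild type and -0.26 ± 0.19, adjusted p = 0.244 in knockout cells, where it fell under quantile normalisation (-0.88, adjusted p = 0.000197). Its rise in wild type cells turned to -0.18 under quantile normalisation and did not pass without any 1 of untreated wild type replicate 1 and LPS-treated wild type replicates 1 and 3 (0.33 to 0.44, adjusted p = 0.065 to 0.0745). Mafg, the third small MAF gene, gave 0.26 ± 0.18, adjusted p = 0.222 in wild type and 0.59 ± 0.22, adjusted p = 0.0321 in knockout cells, where 1 of the 3 spots was missing. The other 2 probes of Mafg gave 0.08 and 0.06 in knockout cells, quantile normalisation gave -0.03, and the call was lost without any 1 of untreated knockout replicates 1, 2 and 4 and LPS-treated knockout replicates 2 and 3 (0.50 to 0.65, adjusted p = 0.052 to 0.147). Sqstm1, which encodes p62, an adaptor that draws KEAP1 into autophagy, did not pass (-0.23 ± 0.17, adjusted p = 0.271 and 0.43 ± 0.18, adjusted p = 0.0592). Its direction in wild type cells is unsettled, since it fell under quantile normalisation (-0.90, adjusted p = 0.000589) and was 0.20 with the signal before the scanner software's detrending.

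Members of this set differ in whether a short window around the start site holds the sequence that NRF2 and small MAF proteins bind. RefSeq promoter windows (build GRCm38.p6, 250 bases before to 50 after the start, 300 in all) were matched to 31 of the 35 genes by symbol, with 40 windows; Gclc, Gsr, Prdx6 and Ncf4 had none. The core of the antioxidant response element was searched as TGACNNNGC and the AP-1 site as TGANTCA, both on either strand. At least 1 window of 11 genes holds the first, namely Nfe2l2, Mafg, Maff, Mafk, Gclm, Mgst1, Txnrd1, Srxn1, Prdx1, Sod1 and Ucp2. Of all 27025 genes with windows of this length, 14.0% hold it. The AP-1 site is in the windows of Srxn1, Prdx1 and Cybb and in those of 8.97% of all genes. By the LPS response in wild type cells, the core was in 5 of 12 genes that rose, 1 of 7 that fell and 5 of 12 that did not pass. A match is only a run of letters, and nothing about binding was measured here. Sequence outside the windows was not searched, so a gene without a match may still hold the core farther away.

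The promoters below are those of the 4 genes with the core that rose most with LPS in wild type cells, 3 of which are regulators of the pathway themselves. Capitals mark the core on either strand, and the sequences run 5′ to 3′ on the strand of the gene. The windows are Maff (chr15:79346371-79346670, plus strand), Mafk (chr5:139791286-139791585, plus strand), Txnrd1 (chr10:82858956-82859255, plus strand) and Nfe2l2 (chr2:75704614-75704913, minus strand). Maff and Txnrd1 have 3 windows each, of which only the one shown holds the core.
Maff: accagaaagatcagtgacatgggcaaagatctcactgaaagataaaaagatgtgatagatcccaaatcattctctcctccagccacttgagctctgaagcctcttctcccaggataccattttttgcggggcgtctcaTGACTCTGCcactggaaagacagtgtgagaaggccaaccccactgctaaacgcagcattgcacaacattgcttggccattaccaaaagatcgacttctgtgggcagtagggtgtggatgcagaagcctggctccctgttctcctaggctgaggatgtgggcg
Mafk: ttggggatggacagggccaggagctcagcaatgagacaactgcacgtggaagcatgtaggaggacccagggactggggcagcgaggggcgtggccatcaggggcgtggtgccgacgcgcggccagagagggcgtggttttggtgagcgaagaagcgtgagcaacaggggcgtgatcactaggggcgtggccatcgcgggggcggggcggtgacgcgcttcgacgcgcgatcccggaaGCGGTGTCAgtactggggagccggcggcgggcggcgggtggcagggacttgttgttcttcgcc
Txnrd1: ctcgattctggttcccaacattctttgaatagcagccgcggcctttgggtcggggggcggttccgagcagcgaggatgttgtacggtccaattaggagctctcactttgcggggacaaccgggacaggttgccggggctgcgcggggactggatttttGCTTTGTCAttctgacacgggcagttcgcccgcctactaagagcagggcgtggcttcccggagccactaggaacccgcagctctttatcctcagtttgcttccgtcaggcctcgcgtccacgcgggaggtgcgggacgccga
Nfe2l2: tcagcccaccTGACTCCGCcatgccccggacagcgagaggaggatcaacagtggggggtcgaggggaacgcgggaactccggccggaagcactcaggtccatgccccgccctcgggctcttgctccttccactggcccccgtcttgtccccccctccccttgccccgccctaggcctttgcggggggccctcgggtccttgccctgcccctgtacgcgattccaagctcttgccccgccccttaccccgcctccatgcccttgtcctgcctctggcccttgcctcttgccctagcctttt

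Srxn1 (chr2:152105274-152105573, plus strand) and Prdx1 (chr4:116685349-116685648, plus strand) are shown because their windows hold both sequences, which was seen after the search. Capitals mark the core and the AP-1 sites. Each window holds 1 core and 2 AP-1 sites, and in Prdx1 the core overlaps 1 of the AP-1 sites, so that these letters serve both patterns.
Srxn1: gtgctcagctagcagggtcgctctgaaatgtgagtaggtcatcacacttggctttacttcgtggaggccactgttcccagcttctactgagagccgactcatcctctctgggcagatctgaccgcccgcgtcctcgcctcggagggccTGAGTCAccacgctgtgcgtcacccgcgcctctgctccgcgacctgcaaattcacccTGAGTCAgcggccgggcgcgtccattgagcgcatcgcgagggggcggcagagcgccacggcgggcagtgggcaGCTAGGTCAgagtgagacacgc
Prdx1: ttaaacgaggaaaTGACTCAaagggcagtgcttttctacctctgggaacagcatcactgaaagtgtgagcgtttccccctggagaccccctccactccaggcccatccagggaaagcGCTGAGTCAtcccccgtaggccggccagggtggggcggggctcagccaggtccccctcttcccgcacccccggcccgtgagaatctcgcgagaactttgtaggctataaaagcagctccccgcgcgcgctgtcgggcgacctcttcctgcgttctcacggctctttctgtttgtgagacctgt

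Of the 10 genes of the glutathione system, 1 rose and 4 fell in wild type cells, and 1 rose and 7 fell in knockout cells. That is 50% and 80% called, where 60.5% and 59.9% of all genes were called. Among all genes 25.5% fell in wild type and 27.5% in knockout cells. The gene that rose is Gsr, glutathione reductase, which regenerates reduced glutathione from the oxidised form. Its level was 4.48, 4.47, 4.82 and 4.92 untreated and 6.26, 6.17, 6.25 and 6.15 with LPS in wild type cells, and 4.51, 4.69, 4.27 and 4.35 and 6.27, 6.35 and 6.55 in knockout cells. The groups are separated by more than 1 log2 unit in both genotypes, and the LPS-treated arrays vary little. Gsr rose by 1.54 ± 0.13 (2.9-fold, adjusted p = 1.21e-07) and 1.94 ± 0.14 (3.83-fold, adjusted p = 2.93e-08), and its other probe gave 1.73 and 1.98.

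The genes of glutathione synthesis went the other way. Gclm encodes the modifier subunit of glutamate-cysteine ligase, the rate-limiting enzyme. It had 3.87, 3.88, 3.93 and 3.30 untreated and 2.72, 3.11, 3.03 and 2.84 with LPS in wild type cells. In knockout cells it had 4.59, 4.68 and 4.41 untreated, with the spot of replicate 3 missing, and 2.90, 3.23 and 3.06 with LPS. All LPS-treated values lie below all untreated ones, and the untreated knockout values are the highest of all while the LPS-treated values of the genotypes overlap. Gclm fell by 0.82 ± 0.15 in wild type (adjusted p = 0.000376) and by 1.5 ± 0.17 in knockout cells (adjusted p = 7.64e-06). Gclc, the catalytic subunit, gave -0.42 ± 0.18, adjusted p = 0.0589 in wild type cells and fell by 0.74 ± 0.20 in knockout cells (adjusted p = 0.0046). Under quantile normalisation Gclc passed in wild type cells too (-0.81, adjusted p = 0.00166). Gss, glutathione synthetase, which makes the last step, had -0.80, -0.86, -0.99 and -0.56 and -1.52, -1.06, -1.45 and -1.35 in wild type and -1.14, -0.94, -1.36 and -0.87 and -2.10, -2.24 and -1.81 in knockout cells, untreated and with LPS. The LPS-treated arrays were lower without overlap, and the 3 LPS-treated knockout arrays were the lowest of all 15. The falls were -0.54 ± 0.15 (adjusted p = 0.00563) and -0.98 ± 0.16 (adjusted p = 0.000115).

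Among the glutathione peroxidases, which reduce peroxides with glutathione, Gpx1 and Gpx4 fell in both genotypes. Gpx1, the abundant cytosolic enzyme, changed by -0.48 ± 0.16, adjusted p = 0.0159 in wild type and -0.75 ± 0.17, adjusted p = 0.00147 in knockout cells. Gpx4, which acts on lipid peroxides, changed by -0.42 ± 0.15, adjusted p = 0.0284 and -0.74 ± 0.17, adjusted p = 0.00144. The wild type groups overlap for both genes, since LPS-treated replicate 2 lay at the lower edge of the untreated arrays for Gpx1 and among them for Gpx4. In wild type cells the call of Gpx1 was lost without LPS-treated wild type replicate 3 (-0.39, adjusted p = 0.0551) and that of Gpx4 without any 1 of untreated wild type replicate 4 and LPS-treated wild type replicates 1, 3 and 4 (-0.39 to -0.31, adjusted p = 0.0677 to 0.0894). Under quantile normalisation both falls were larger (-1.05 and -1.44 for Gpx1, -1.08 and -1.43 for Gpx4). Gpx3, the secreted peroxidase, fell in knockout cells only by the test (-0.76 ± 0.20, adjusted p = 0.0055, against -0.08 ± 0.19, adjusted p = 0.738 in wild type cells), and the difference itself did not pass (-0.67 ± 0.28, adjusted p = 0.152).

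The glutathione transferases attach glutathione to electrophiles. Mgst1, a membrane-bound member, fell in knockout cells (-0.38 ± 0.14, adjusted p = 0.0267) and gave -0.07 ± 0.13, adjusted p = 0.668 in wild type cells. Its other probe gave -0.40 in wild type and -0.28 in knockout cells, and its probes differ in sign between the LPS-treated genotypes and for the difference of the responses. This fall was lost without any 1 of untreated knockout replicate 1 and LPS-treated knockout replicates 3 and 4 (-0.37 to -0.30, adjusted p = 0.073 to 0.0811), while quantile normalisation gave falls in both genotypes (-0.73 and -1.10). Gsto1, an omega-class member, did not pass (-0.07 ± 0.16, adjusted p = 0.738 and -0.20 ± 0.17, adjusted p = 0.322), although quantile normalisation gave -0.74 and -0.81 with adjusted p of 1.2e-05 and 1.09e-05. Gstm1 did not pass either (0.40 ± 0.18, adjusted p = 0.0748 and -0.19 ± 0.20, adjusted p = 0.43) and is unsettled, since in knockout cells quantile normalisation gave a fall (-0.47, adjusted p = 0.0399), its other probe gave 1.83, and the genes of its class are close in sequence.

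Of the 9 genes of the thioredoxin system, 6 rose and 1 fell in wild type cells, and 5 rose and 1 fell in knockout cells, while under quantile normalisation their median was near that of all genes. The calls are 77.8% and 66.7% of this short list, where 60.5% and 59.9% of all genes were called. Among all genes 34.9% rose in wild type and 32.5% in knockout cells. Txnrd1, the reductase that recharges thioredoxin from NADPH, had 5.65, 5.83, 5.95 and 6.37 untreated and 7.28, 7.25, 7.18 and 7.27 with LPS in wild type cells. In knockout cells it had 6.28, 6.19, 6.21 and 6.08 and 7.34, 7.52 and 7.30. The LPS-treated arrays of both genotypes lie within a narrow band above all untreated arrays, of which wild type replicate 4 is the highest. Txnrd1 rose by 1.30 ± 0.13 (adjusted p = 8.68e-07) and 1.19 ± 0.14 (adjusted p = 4.95e-06). Txn1, thioredoxin itself, had 6.88, 7.43, 7.59 and 7.28 and 8.23, 8.24, 7.75 and 8.23 in wild type and 7.48, 6.89, 7.08 and 7.45 and 8.12, 8.65 and 8.17 in knockout cells, untreated and with LPS. Its groups do not overlap, and LPS-treated wild type replicate 3 was the lowest of the treated arrays. The rises were 0.82 ± 0.19 (adjusted p = 0.00212) and 1.09 ± 0.21 (adjusted p = 0.000458). Srxn1, sulfiredoxin, which repairs over-oxidised peroxiredoxins, rose by 0.47 ± 0.14 (adjusted p = 0.00881) and 0.86 ± 0.15 (adjusted p = 0.000184). Under quantile normalisation Srxn1 fell in wild type cells (-0.22, adjusted p = 0.0457) and did not pass in knockout cells (0.17, adjusted p = 0.167), so that its direction depends on the scaling.

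The peroxiredoxins, which reduce peroxides with electrons from thioredoxin, did not move as 1 group. Prdx5, found in mitochondria, peroxisomes and cytosol, had 7.19, 7.35, 7.19 and 7.48 untreated and 8.05, 8.26, 7.83 and 8.27 with LPS in wild type cells. In knockout cells it had 6.65, 6.65, 6.36 and 6.90 untreated and 8.15 and 7.98 with LPS, where the spot of replicate 2 was missing. LPS-treated arrays were higher in both genotypes, and the untreated knockout arrays were the lowest group. Prdx5 rose by 0.80 ± 0.14 (adjusted p = 0.000222) and 1.42 ± 0.17 (adjusted p = 8.95e-06). Prdx6, which uses glutathione and also acts on phospholipids, rose by 0.88 ± 0.14 and 0.55 ± 0.15 (adjusted p = 7.81e-05 and 0.00552), and all 4 of its probes were positive, but quantile normalisation gave 0.16 and -0.10 and neither passed. Prdx4, the peroxiredoxin of the endoplasmic reticulum, rose in wild type cells (0.48 ± 0.20, adjusted p = 0.0489), but quantile normalisation gave -0.11, and in knockout cells it had 0.25 ± 0.21, adjusted p = 0.323. The call of Prdx4 was lost without any 1 of untreated knockout replicates 1 and 2, LPS-treated knockout replicates 2 and 3, untreated wild type replicates 1, 2 and 3 and LPS-treated wild type replicates 1, 2 and 3 (0.34 to 0.54, adjusted p = 0.0521 to 0.15). Prdx3, the mitochondrial peroxiredoxin, was the one that fell (-0.30 ± 0.12, adjusted p = 0.042 and -0.39 ± 0.13, adjusted p = 0.0189), with larger falls under quantile normalisation (-0.78 and -0.79). Its call in wild type cells was lost without any 1 of untreated knockout replicate 1, LPS-treated knockout replicates 2 and 4, untreated wild type replicates 2, 3 and 4 and LPS-treated wild type replicates 1, 3 and 4 (-0.33 to -0.21, adjusted p = 0.0517 to 0.125), and in knockout cells without any 1 of untreated knockout replicate 2 and LPS-treated knockout replicate 3 (-0.34, adjusted p = 0.0542 to 0.0695). The cytosolic Prdx1 (0.32 ± 0.17, adjusted p = 0.123 and 0.43 ± 0.19, adjusted p = 0.0601) and Prdx2 (0.06 ± 0.11, adjusted p = 0.658 and -0.18 ± 0.12, adjusted p = 0.199) did not pass. Under quantile normalisation Prdx2 fell in both genotypes (-0.50 and -0.71, adjusted p = 0.000237 and 2.31e-05). Prdx1 passed in wild type cells with the signal before the scanner software's detrending (0.48, adjusted p = 0.0286), and Prdx4 did not (0.36, adjusted p = 0.149). Between the untreated genotypes the probes of Prdx1 and of Prdx6 differ in sign, as do those of Prdx1 for the difference of the responses, so these are unsettled.

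**Figure D2:**
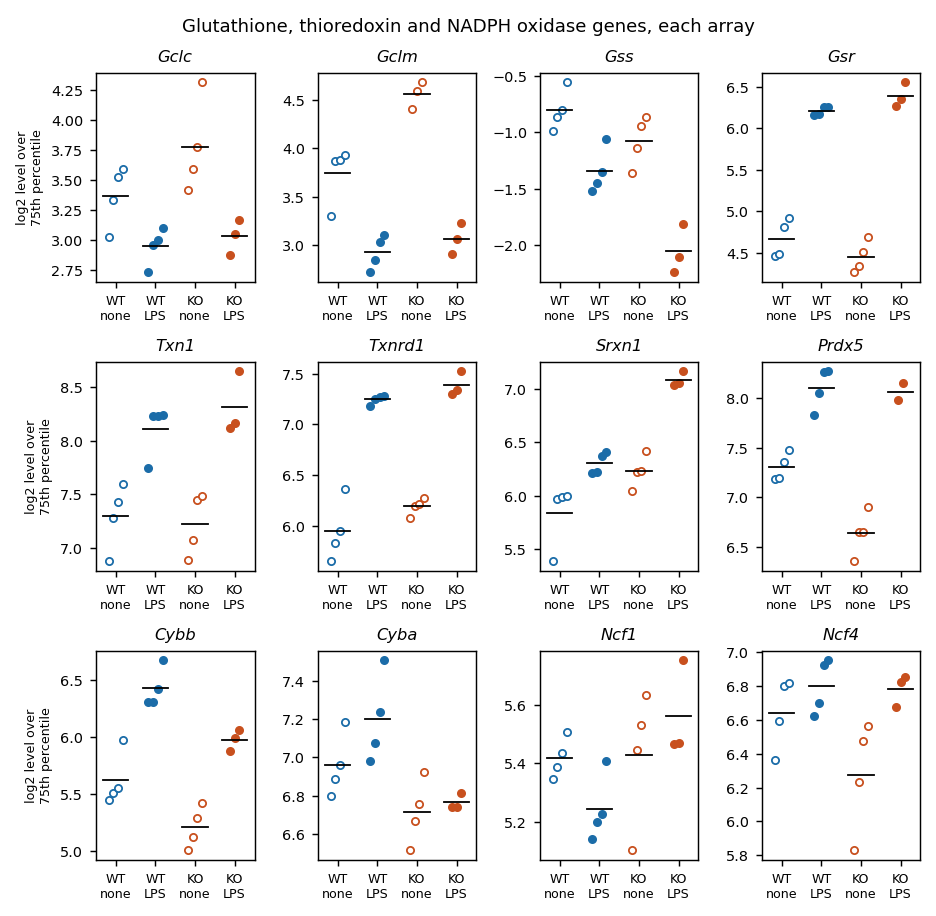
Level of 12 genes on each array (log2 of the processed signal over the 75th percentile of the array) in untreated (none, open) and LPS-treated (filled) wild type (WT, blue) and knockout (KO, orange) cells; black bars are group means, and vertical scales differ between panels. In the top row Gclm and Gss fall with LPS while Gsr rises, the second row shows higher levels with LPS in the thioredoxin system, and in the bottom row only Cybb separates untreated from LPS-treated arrays in both genotypes; the rises of Srxn1 and Cybb did not hold under quantile normalisation.

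Of the 4 NADPH oxidase genes, 1 rose in wild type and 2 rose in knockout cells and none fell, whereas under quantile normalisation none rose and 3 fell in wild type and 2 in knockout cells. Cybb encodes gp91phox, the membrane subunit that transfers electrons to oxygen. It had 5.55, 5.51, 5.44 and 5.97 untreated and 6.31, 6.67, 6.31 and 6.42 with LPS in wild type cells, and 5.12, 5.42, 5.01 and 5.29 and 5.99, 5.88 and 6.06 in knockout cells. LPS-treated arrays lay above untreated ones within each genotype, with the knockout arrays below the wild type arrays of the same treatment. Cybb rose by 0.81 ± 0.14 (adjusted p = 0.000141) and 0.77 ± 0.15 (adjusted p = 0.000465), but neither rise passed under quantile normalisation (0.09 and 0.09, adjusted p = 0.627 and 0.66). Cyba encodes p22phox, the partner of gp91phox in the membrane. Its levels were 6.80, 6.96, 6.89 and 7.18 and 7.24, 7.51, 6.98 and 7.07 in wild type cells and 6.76, 6.67, 6.52 and 6.93 and 6.82, 6.74 and 6.74 in knockout cells, untreated and with LPS. Treated and untreated arrays overlap in both genotypes, and the changes of 0.24 ± 0.13, adjusted p = 0.125 and 0.05 ± 0.14, adjusted p = 0.789 did not pass. In knockout cells its other probe gave -0.16, so the sign there is unsettled.

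The cytosolic subunits were measured through Ncf1 (p47phox, the organiser) and Ncf4 (p40phox). Ncf1 gave -0.18 ± 0.12, adjusted p = 0.228 in wild type and 0.13 ± 0.13, adjusted p = 0.39 in knockout cells. Ncf4 gave 0.16 ± 0.16, adjusted p = 0.426 in wild type cells and rose in knockout cells (0.51 ± 0.17, adjusted p = 0.0198). That rise turned to -0.20 under quantile normalisation and did not pass without any 1 of untreated knockout replicate 3 and LPS-treated knockout replicates 2 and 4 (0.36 to 0.49, adjusted p = 0.0535 to 0.0628). Under quantile normalisation Cyba and Ncf1 fell in both genotypes and Ncf4 fell in wild type cells, with values between -0.84 and -0.31. Thus no NADPH oxidase gene of the 4 was called in the same direction under both scalings in either genotype.

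Of the enzymes that remove superoxide and hydrogen peroxide directly, Sod2 rose and Cat fell. Sod2 is the mitochondrial superoxide dismutase, with levels of 7.65, 8.06, 7.90 and 8.05 untreated and 9.01, 9.0, 8.64 and 9.34 with LPS in wild type cells and 8.00, 7.35, 7.51 and 7.95 and 8.87, 9.38 and 9.0 in knockout cells. Treated and untreated arrays did not overlap. The rises were 1.08 ± 0.19 (adjusted p = 0.000156) and 1.38 ± 0.20 (adjusted p = 3.75e-05), and since its signal reached 425257, near the bright end of the arrays, their size is uncertain. Cat, catalase, had 3.69, 3.15, 3.20 and 2.89 untreated and 0.82, 1.06, 1.22 and 1.79 with LPS in wild type cells, and 3.91, 3.99, 3.72 and 4.09 and 2.0, 2.30 and 2.41 in knockout cells. Every treated array is lower than every untreated array, and the knockout values with LPS lie above the wild type ones. Cat fell by 2.01 ± 0.21 (adjusted p = 1.09e-06) and 1.69 ± 0.22 (adjusted p = 1.49e-05), the largest falls of the 35 genes in each genotype, while its other probe gave smaller falls of -0.54 and -1.20. Sod1, the cytosolic superoxide dismutase, did not pass (-0.10 ± 0.16, adjusted p = 0.611 and 0.24 ± 0.17, adjusted p = 0.247), but under quantile normalisation it fell in both genotypes (-0.59 and -0.35, adjusted p = 0.000546 and 0.0293).

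Nqo1, a quinone reductase widely used as a readout of NRF2, fell. It had -0.81, -0.51, -0.67 and -0.68 untreated and -1.86, -1.39, -1.92 and -1.97 with LPS in wild type and -1.14, -0.99, -1.34 and -1.10 and -2.30, -2.31 and -1.83 in knockout cells. Treated arrays were lower without overlap within each genotype, and the falls of -1.12 ± 0.15 (adjusted p = 1.62e-05) and -1.0 ± 0.16 (adjusted p = 0.000103) passed under quantile normalisation as well. The fall in wild type cells was smaller with the signal before the detrending (-0.65, adjusted p = 0.00154) and did not pass in the deposited value table (-0.46, adjusted p = 0.0577). Ucp2, a carrier of the inner mitochondrial membrane, fell in knockout cells (-1.12 ± 0.21, adjusted p = 0.000378) and gave -0.41 ± 0.19, adjusted p = 0.0868 in wild type cells, where LPS-treated replicate 2 stayed at 3.80, above the untreated arrays. Under quantile normalisation Ucp2 fell in wild type cells as well (-0.86, adjusted p = 0.00105). The difference of its responses did not pass (-0.71 ± 0.29, adjusted p = 0.141).

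Set side by side, the median change with LPS was -0.25 in the glutathione system, 0.48 in the thioredoxin system and 0.20 among the NADPH oxidase genes in wild type cells, where the median of all genes was 0.14. In knockout cells the medians were -0.74, 0.55 and 0.32, with 0.19 for all genes. These thioredoxin medians are the values of Prdx4 in wild type and Prdx6 in knockout cells, whose rises did not pass under quantile normalisation. Under quantile normalisation they became -0.74, -0.05 and -0.39 in wild type cells (all genes -0.10) and -1.10, -0.10 and -0.37 in knockout cells (all genes -0.07). Relative to all genes, the glutathione median was thus negative under both scalings, at -0.39 and -0.64 in wild type and -0.94 and -1.03 in knockout cells. The thioredoxin system stood 0.35 and 0.36 above all genes in wild type and knockout cells here, but the values were 0.05 and -0.03 under quantile normalisation. For the NADPH oxidase the values relative to all genes changed sign, from 0.06 and 0.13 to -0.29 and -0.30. This change of sign depends on the genes used for comparison. The brightest 10% of genes had medians of 0.46 in wild type and 0.54 in knockout cells here. Under quantile normalisation these were -0.13 and -0.08. The NADPH oxidase medians lay below those of the bright genes under both scalings in both genotypes. The glutathione medians did so as well, whereas the thioredoxin medians were close to those of the bright genes. The gap between the thioredoxin and the glutathione median kept its direction, at 0.74 and 0.68 in wild type and 1.30 and 1.00 in knockout cells under the 2 scalings. The NADPH oxidase median lay between the other medians in each case. The genes were chosen with earlier results known, so these medians describe the lists and carry no test. Within each list the members differ, since Gsr rose and Gclm fell, and Txnrd1 rose and Prdx3 fell, under both scalings in both genotypes.

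**Figure D3:**
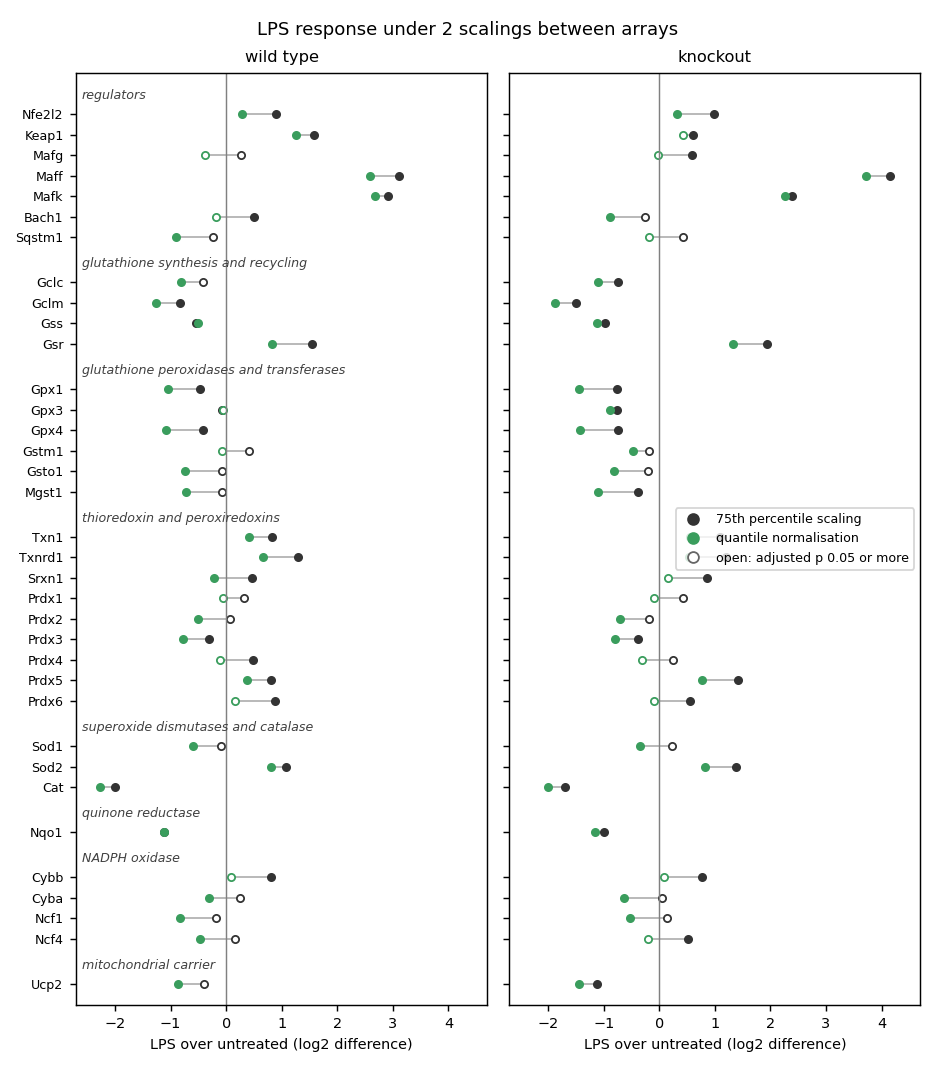
Change with LPS of the 35 genes (log2 difference) in wild type (left) and knockout cells (right) after scaling to the 75th percentile (black) and after quantile normalisation (green); open points have an adjusted p of 0.05 or more and lines join the values of a gene. Most green points lie to the left of the black ones, and Cybb, Ncf4, Prdx4, Prdx6 and Srxn1 are among those that come near or cross 0 in at least 1 genotype.

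Of the 35 genes, 2 responded differently to LPS in the 2 genotypes, 1 higher and 1 lower in knockout cells, where 10.1% of all genes were called (2.90% higher and 7.15% lower). Both are regulators: Keap1 rose less and Maff rose more in knockout cells. For Keap1 the difference was -0.97 ± 0.28 (adjusted p = 0.04), from a rise of 1.57 to one of 0.60. For Maff it was 1.05 ± 0.30 (adjusted p = 0.0399), from 3.11 to 4.15. Both calls are close to the threshold. That of Keap1 was lost under quantile normalisation (-0.82, adjusted p = 0.0897) and without any 1 of untreated knockout replicates 1, 2 and 3, LPS-treated knockout replicates 3 and 4, untreated wild type replicates 2 and 3 and LPS-treated wild type replicates 1, 2 and 3 (-1.02 to -0.78, adjusted p = 0.0508 to 0.125). That of Maff held under quantile normalisation (1.13, adjusted p = 0.0238) but not without any 1 of untreated knockout replicates 1, 2 and 4, LPS-treated knockout replicates 2 and 3, untreated wild type replicates 2, 3 and 4 and LPS-treated wild type replicates 2, 3 and 4 (0.89 to 1.10, adjusted p = 0.0528 to 0.107). With untreated wild type signals taken before the scanner software's detrending, which changed those 4 arrays alone, they were -0.83 (adjusted p = 0.0757) and 0.94 (adjusted p = 0.0665). With that signal only Bach1 passed among the 35 genes (-0.84, adjusted p = 0.0473, against -0.75 ± 0.25, adjusted p = 0.0788 with the processed signal). Bach1 also passed under quantile normalisation (-0.70, adjusted p = 0.0483). The other 32 genes did not pass with either signal or under quantile normalisation, and their differences, at the brightest probe, ran from -0.71 in Ucp2 to 0.66 in Sqstm1. The value of Sqstm1 includes its wild type change, which was -0.23 here and 0.20 before the detrending. Gstm1 (-0.59, other probe 1.31), Cat (0.32, other probe -0.66) and Mafg (0.32, other probes -0.29 and -0.34) differ in sign between probes. Their differences of the responses are unsettled. The median difference was -0.32 in the glutathione system, -0.09 in the thioredoxin system and 0.13 in the NADPH oxidase, against -0.06 over all genes.

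Without LPS, 4 of the 35 genes were higher and 3 lower in knockout than in wild type cells, which is 7 of 35 where 17.7% of all genes were called (11.9% higher and 5.83% lower). The groups did not overlap for 9 genes, against 21.0% of all genes. Gpx3 stood out, with 2.20, 2.61, 2.07 and 2.55 in untreated knockout and 0.60, 0.14, 0.02 and 0.43 in untreated wild type cells. With LPS it had 1.54, 1.32 and 1.93 in knockout and 0.10, 0.62, 0.11 and 0.02 in wild type cells. Every knockout array lay above every wild type array. Gpx3 was higher by 2.06 ± 0.19 untreated (4.16-fold, adjusted p = 5.83e-06) and 1.38 ± 0.20 with LPS (2.61-fold, adjusted p = 0.000204), the largest genotype difference of the 35 genes in each treatment. Gclm was higher by 0.81 ± 0.16 in untreated knockout cells (1.76-fold, adjusted p = 0.00406, 3 knockout spots) and Prdx2 by 0.44 ± 0.11 (adjusted p = 0.0131). Cat was higher as well (0.69 ± 0.21, adjusted p = 0.0329), a call lost under quantile normalisation (0.72, adjusted p = 0.0582) and without any 1 of untreated knockout replicates 1, 2 and 4 and untreated wild type replicates 2, 3 and 4 (0.58 to 0.70, adjusted p = 0.0672 to 0.0752).

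Prdx5, Sqstm1 and Nqo1 were the genes lower in untreated knockout cells. Prdx5 differed by -0.66 ± 0.14, adjusted p = 0.00507 and was 1.58-fold higher in wild type cells, with no overlap of the arrays. Sqstm1 had 4.78, 5.22, 4.61 and 4.88 in knockout and 5.62, 5.76, 5.54 and 5.62 in wild type cells, a difference of -0.76 ± 0.17, adjusted p = 0.00705. Nqo1 differed by -0.48 ± 0.15, adjusted p = 0.042, and this call was lost under quantile normalisation (-0.40, adjusted p = 0.182) and without any 1 of untreated knockout replicates 1, 3 and 4, untreated wild type replicates 2, 3 and 4 and LPS-treated wild type replicates 1 and 3 (-0.49 to -0.41, adjusted p = 0.0514 to 0.114). These comparisons rest on the 4 untreated wild type arrays, the only ones whose processed signal differs from the background-subtracted signal, by a factor that differs from spot to spot. At the spots of Sqstm1 and Nqo1 that factor averaged 0.44 and 0.47 on the log2 scale. Before it was applied, the differences were -0.33 for Sqstm1 (adjusted p = 0.259) and -0.01 for Nqo1 (adjusted p = 0.985), so that neither passed, and Prdx2 at 0.25 did not pass either (adjusted p = 0.194). Gpx3 (1.98), Gclm (0.78), Cat (0.83) and Prdx5 (-0.51) passed with that signal too. The 28 genes that did not pass lay between -0.42 in Gpx1 and 0.42 in Prdx4. Of these, Bach1 (0.43), Mgst1 (0.32), Srxn1 (0.47) and Prdx6 (0.31) passed as higher under quantile normalisation, and Cybb passed as lower before the detrending (-0.53, adjusted p = 0.0163).

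With LPS, 4 of the 35 genes were higher and 8 lower in knockout cells, 12 in all, where 30.8% of all genes were called (13.6% higher and 17.1% lower). The arrays did not overlap for 17 genes, against 42.0% of all genes. The higher genes were Gpx3, Cat, Maff and Srxn1. Srxn1 had 7.06, 7.17 and 7.03 in LPS-treated knockout and 6.41, 6.21, 6.37 and 6.23 in LPS-treated wild type cells, and the lowest knockout array lay above the highest wild type array. Its difference was 0.78 ± 0.15, adjusted p = 0.00142, and without LPS it was 0.39 ± 0.14, adjusted p = 0.0653. Maff differed by 0.80 ± 0.22, adjusted p = 0.0138, which did not pass without any 1 of LPS-treated knockout replicates 2 and 3 (0.74 to 0.75, adjusted p = 0.0515 to 0.0592). Cat differed by 1.01 ± 0.22, adjusted p = 0.00374 and is unsettled, since its other probe gave -0.09.

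The genes lower in LPS-treated knockout cells include the regulators Keap1 and Mafk, glutathione genes and both membrane subunits of the oxidase. Keap1 differed by -1.01 ± 0.20, adjusted p = 0.00205, and its 2.01-fold higher level in wild type cells was not seen without LPS (-0.04 ± 0.19, adjusted p = 0.926). Mafk differed by -0.76 ± 0.16, adjusted p = 0.00331. Of the glutathione system, Gss (-0.71 ± 0.16, adjusted p = 0.00435), Gpx1 (-0.69 ± 0.17, adjusted p = 0.00678) and Gstm1 (-0.90 ± 0.20, adjusted p = 0.00381, other probe -0.22) were lower. For the oxidase, Cybb differed by -0.45 ± 0.15, adjusted p = 0.0332 and Cyba by -0.43 ± 0.14, adjusted p = 0.0312, with a difference of -0.70 at the other probe of Cyba. The call of Cybb, an X-linked gene, was lost under quantile normalisation (-0.37, adjusted p = 0.0899) and without any 1 of LPS-treated knockout replicates 2, 3 and 4 and LPS-treated wild type replicate 2 (-0.49 to -0.37, adjusted p = 0.0512 to 0.122), and that of Cyba without any 1 of LPS-treated knockout replicates 2, 3 and 4 and LPS-treated wild type replicates 1 and 2 (-0.46 to -0.33, adjusted p = 0.0621 to 0.0933). Without LPS the values were -0.41 ± 0.14, adjusted p = 0.0543 for Cybb and -0.24 ± 0.13, adjusted p = 0.232 for Cyba, and Ncf1 and Ncf4 did not pass in either state. Ucp2 differed by -0.67 ± 0.21, adjusted p = 0.0274, which was lost under quantile normalisation (adjusted p = 0.0503) and without any 1 of LPS-treated knockout replicates 2 and 3 and LPS-treated wild type replicate 2 (-0.66 to -0.50, adjusted p = 0.0728 to 0.134). The summed neutrophil marker level given above was also lower in LPS-treated knockout (19.4 to 22.3) than in LPS-treated wild type cells (52.6 to 71.1). Their part in the differences was not tested. The 23 genes that did not pass lay between -0.36 in Nqo1 and 0.32 in Ncf1. Of these, Mafg is unsettled (0.29, with -0.66 and -0.77 at its other probes), and Prdx6 gave -0.03 with -0.77 to -0.69 at its other 3 probes.

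**Figure D4:**
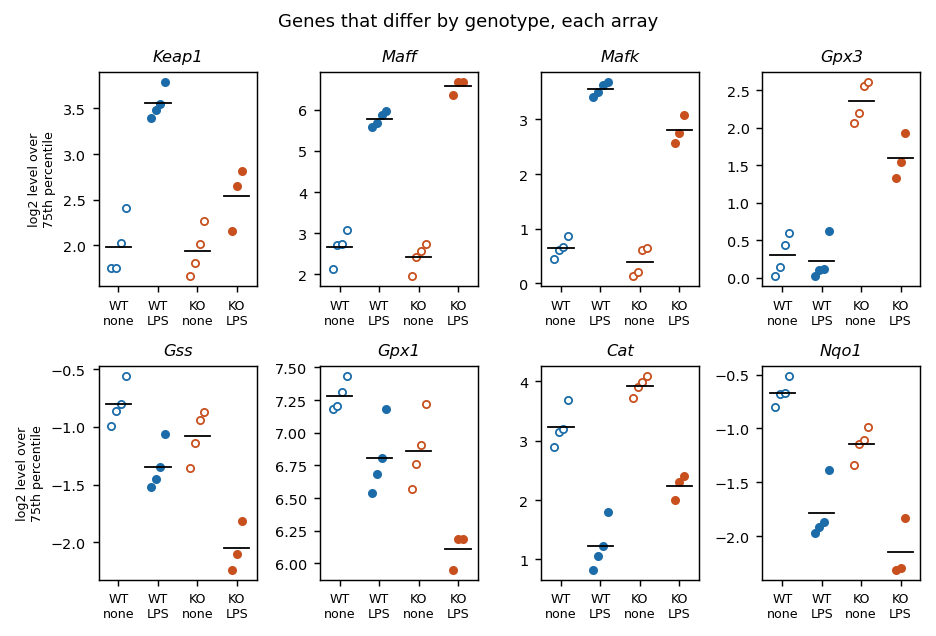
Level of 8 genes on each array (log2 of the processed signal over the 75th percentile of the array) in untreated (none, open) and LPS-treated (filled) wild type (WT, blue) and knockout (KO, orange) cells; black bars are group means, and vertical scales differ between panels. Keap1 and Mafk are lower and Maff is higher in LPS-treated knockout than in LPS-treated wild type cells, and Gpx3 is higher in knockout cells in both states.

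Other genes of these pathways came from 4 lists of NRF2 targets, NRF2 regulation, glutathione and thioredoxin genes and NADPH oxidase genes and regulators that hold none of the 35 genes. Of 89 listed genes 79 were tested. In wild type cells 25 of the 79 rose and 28 fell with LPS, in knockout cells 24 rose and 28 fell, against 34.9% higher and 25.5% lower among all genes for wild type and 32.5% and 27.5% for knockout cells. The highest rise was that of Slc7a11, the cystine importer that supplies glutathione synthesis. Its level was 0.08, 0.77, 0.68 and 0.48 untreated and 5.78, 5.64, 5.69 and 5.80 with LPS in wild type cells, and -1.0, -0.95, -0.76 and -1.43 and 3.99, 4.05 and 4.32 in knockout cells. It rose by 5.22 ± 0.16 (37.4-fold) in wild type and 5.16 ± 0.18 in knockout cells while Gclc, Gclm and Gss did not rise, and it was lower in knockout cells in both states (-1.54 ± 0.16, adjusted p = 2.16e-05 untreated, -1.60 ± 0.18, adjusted p = 1.83e-05 with LPS). Chac1, which degrades glutathione, rose by 4.21 ± 0.24 and 4.56 ± 0.26. Trim21 rose by 3.15 ± 0.15 in wild type and Ggct, of the glutathione degradation pathway, by 3.36 ± 0.17 in knockout cells. Each is named where it was among the 3 largest rises, and neither rise was confined to that genotype. Trim21 had 3.05 to 3.43 untreated and 6.38 to 6.55 with LPS in knockout cells. In wild type cells Ggct had 0.69 to 1.23 untreated and 3.73 to 4.03 with LPS. The largest falls were those of Sesn1, a sestrin (-6.58 ± 0.13 and -6.49 ± 0.14), the carbonyl reductase Cbr3 (-2.71 ± 0.16 and -3.12 ± 0.17), Gpx2 in wild type cells (-3.03 ± 0.33, well above background on 1 of 4 LPS-treated arrays) and Bach2 in knockout cells (-2.28 ± 0.32). Bach2 was lower with LPS in wild type cells too (-0.79 to 0.24 untreated, -3.36 to -1.71 with LPS). Likewise Gpx2 was lower with LPS in knockout cells (-2.03 to -1.79 untreated, -2.81 to -2.64 with LPS). Hmox1, heme oxygenase 1, rose by 1.06 ± 0.12 and 0.51 ± 0.13, but quantile normalisation gave 0.35 and -0.18, and neither passed.

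The LPS response of 5 of these 79 genes was higher and of 7 lower in knockout cells. Among all genes 2.90% were called higher and 7.15% lower. Osgin1 (0.96 ± 0.21) was among the higher, and Gstt2 (-1.03 ± 0.25) and Sesn2 (-0.92 ± 0.27) among the lower ones, of which Sesn2 did not pass under quantile normalisation (adjusted p = 0.0792). Gpx2 and Nox1 were called higher too, but no size is given, since Gpx2 was well above background on 1 of 4 LPS-treated wild type arrays and Nox1, without LPS, on 0 of 4 wild type and 1 of 4 knockout arrays. Without LPS 13 of the 79 were higher and 7 lower in knockout cells (17.7% of all genes called), among them the epoxide hydrolase Ephx1 (1.52 ± 0.14), Bach2 (1.51 ± 0.30), the scavenger receptor Marco (1.43 ± 0.14), Gpx2 (-1.27 ± 0.33) and Mgst2 (-1.24 ± 0.14). Hmox1 was higher by 0.43 ± 0.12 in untreated knockout cells but unsettled, since its other probe gave -0.27. With LPS 15 were higher and 13 lower (30.8% of all genes called), among them Nox1 (1.87 ± 0.21, well above background on 2 of 4 wild type arrays), Marco (1.85 ± 0.15), the proton channel Hvcn1 (1.78 ± 0.14), Gstm2 (-1.37 ± 0.18) and Mgst2 (-1.29 ± 0.16).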

How the data were processed

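Labelled RNA of 15 wells was hybridised to single-colour Agilent mouse arrays, per the labels' protocols. Agilent Feature Extraction 10.7.3.1 quantified the spots and the design refers to build mm9, per the file headers. The processed signal is an intensity after background subtraction with no scaling between arrays, per the file headers. The deposited value table holds log2 values, whose method is not given in the sources used here. Its columns have medians near 6.3, follow the rank order of each array's median spot signal, and its centring is unknown; it lists 24 of the 35 genes and served as an alternative; on 5 arrays it repeats 1 value between 7.35 and 7.48 over 924 to 3202 features.

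From there, marked spots were set to missing, each signal was scaled by the 75th percentile of its array and raised to a floor (log2 -4.52), and log2 was taken. A probe was kept if 3 or more arrays of any group had it well above background, and a gene was represented by its brightest kept probe. Of 55681 probes 26582 were named through 1 RefSeq symbol. Group means over all 15 arrays were fitted with limma 3.58.1 in R 4.3.3, with Benjamini-Hochberg adjustment over 14192 genes at 0.05; the fit was tested on simulated data. Normexp used the median spot signal with offset 50, since the mean signal was not used here. The number of arrays limits the precision. Members and lists were chosen with earlier results of these data known. All members are named; of the other lists, at most the 3 largest called rises and falls per comparison, plus Hmox1 and Slc7a11; 1 further result is not reported here. Printed promoters are those of up to 4 members with the core and the largest wild type rise, plus 2 with both motifs, added after the search. Alternatives were quantile normalisation, normexp, the value table, other filters, floor and probe rules, array weights, a replicate block and leaving out each array.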

Additional observations from a re-analysis of the deposited data

Results flagged for a closer look

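The difference between the LPS responses of the genotypes passed for Keap1 (-0.97) and Maff (1.05).

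In 10 of 104 groups of 4 arrays, 1 array lay far from the others on Dixon's test, and all 10 were wild type arrays. By chance a single group does so about 1 time in 20. The genes share the same arrays, so the count cannot be set against that rate. On untreated wild type replicate 1 these were Nfe2l2 at 5.83 (others 6.50 to 6.62), Srxn1 at 5.39 (others 5.97 to 6.00) and Prdx6 at 4.41 (others 5.0 to 5.09), all lower. On untreated wild type replicate 4, Gclm was low at 3.30 (others 3.87 to 3.93) and Gpx4 high at 6.31 (others 5.81 to 5.88). On LPS-treated wild type replicate 2, Gpx3 at 0.623 (others 0.02 to 0.11), Gpx4 at 5.94 (others 5.38 to 5.46) and Ucp2 at 3.80 (others 3.05 to 3.14) were high. Txn1 was low on LPS-treated wild type replicate 3 at 7.75 (others 8.23 to 8.24), and Prdx3 on LPS-treated wild type replicate 4 at 3.30 (others 3.60 to 3.64).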

How the results depend on the processing

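The alternatives chosen after seeing the data are the signal before the detrending and the value table with its repeated values missing. Of the 67 member calls, those that kept direction and threshold were 67 with the stricter filter and with array weights, 64 with no floor and with the mean of all probes, 61 with no filter and before the detrending, 60 with normexp and 51 under quantile normalisation. The value table gave values for 48 calls, of which 27 kept (32 with repeated values missing), and none for genes it does not list. The cause of each change below was not tested. Without untreated knockout replicate 3, which deviated most, 22, 24, 1, 6 and 13 members were called over the 5 comparisons, against 21, 25, 2, 7 and 12.

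Members called with LPS in wild type and knockout cells were 13 and 15 in the value table. For the difference of responses, 0 were called with normexp, both value tables, no filter and no floor (against 2), 1 before the detrending and 10 with array weights; leaving out 1 array gave 0 to 3. Untreated, the genotypes differed for 15 members with array weights, 2 in the value table and 4 with repeated values missing, and with LPS for 6 in the value table. Same-numbered arrays were not paired (3 of 7 residual correlations over 0.1, range -0.53 to 0.56); with a replicate block 60 of the 67 calls kept, and 0 members were called for the difference of responses.

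Medians with LPS in wild type cells under quantile normalisation were -0.74 (glutathione), -0.051 (thioredoxin) and -0.39 (NADPH oxidase), and in knockout cells -1.10, -0.10 and -0.37. In the value table thioredoxin had 0.042 and -0.17, NADPH oxidase -0.48 and 0.041 (-0.30 with repeated values missing), and the glutathione genotype difference with LPS 0.10.

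Directions turned under quantile normalisation for Bach1 (-0.18), Srxn1 (-0.22) and Prdx4 (-0.11) in wild type and Mafg (-0.025), Prdx6 (-0.10) and Ncf4 (-0.20) in knockout cells. In both value tables they turned for Prdx4 (-0.28) and Cybb (-0.073) in wild type cells, Prdx6 (-0.15) and Ncf4 (-0.30) in knockout cells and untreated Nqo1 between genotypes (0.18; normexp 0.026). Untreated Gclm turned only with the repeated value in place (-0.99).

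Genes called for the difference of responses were 1427, against 822 with normexp, 527 and 663 in the value tables, 4695 with array weights and 931 without LPS-treated knockout replicate 3. For untreated genotypes they were 2515 against 1164, 1481 (value tables) and 5479 (array weights), and with LPS 4365 against 2588 (value table) and 2867 without LPS-treated knockout replicate 3.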
